A study of Mus musculus with 24 samples.

Results

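Isolithocholic acid (IsoLCA) and lithocholic acid (LCA) are epimers: they share 1 steroid skeleton and side chain and differ only in the orientation of the hydroxyl group on carbon 3, which is alpha in LCA and beta in IsoLCA. The 3 libraries of cells given IsoLCA were set against the 3 libraries of cells given LCA, 6 of the 24 libraries of the series, chosen by their sample titles. The cells were mouse CD8+ T cells activated in culture. Both acids were given at 50 µM, for 24 h per the design text of the series and overnight per the treatment protocol. A further 3 libraries came from cells labelled as control, for which no vehicle is stated. The labels give no strain, age or sex for the mice, and nothing in them ties the replicates to different mice or culture wells. The p-values of the tests on genes therefore reflect only the scatter among libraries, taken over all 24 of the series, part of which may be technical. Of the possible pairs of acids at 1 dose, this 1 pair was compared.

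LCA is a secondary bile acid that gut bacteria form from a primary acid made in the liver. Bacterial enzymes turn LCA into IsoLCA by oxidising its hydroxyl group to a ketone and reducing it again in the other orientation. LCA is known as a ligand of the vitamin D receptor and of a membrane bile acid receptor, and IsoLCA is known for effects on CD4+ T helper cells that make interleukin 17. CD8+ T cells are the cytotoxic T cells that kill infected and tumour cells.

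The 6 libraries held 32877367.5 to 41024340.5 counts in genes. Counts in exons made up 83.3% ± 1.38 (SD, n = 3) of library totals with IsoLCA, 80.7% ± 1.52 (SD, n = 3) with LCA and 82.6% ± 1.37 (SD, n = 3) in control. The shares with the 2 acids overlapped between libraries (two-sided exact permutation p = 0.2, where 3 against 3 cannot give a p below 0.1). In a principal component analysis of the 9 libraries, component 1 (40.2% of the variance) placed LCA from -25.6 to -15.5, IsoLCA from 3.28 to 11.95 and control from 10.2 to 18.7. Component 2 (19.8%) placed IsoLCA from -20.3 to -6.20 and control from 3.17 to 17.1. The CD8 gene Cd8a stood at 656 to 678 CPM (counts scaled to library size) with IsoLCA and 666 to 677 CPM with LCA, and Cd4 at 0.64 CPM or less in each of the 9 libraries. The summed level of 9 B cell markers was 4.63 to 5.07 CPM with LCA and 5.35 to 6.11 CPM with IsoLCA, and that of 14 myeloid markers was 3.66 to 4.20 CPM with LCA and 2.88 to 3.56 CPM with IsoLCA, with Csf1r at 0.0286 CPM or less. Of these markers 8 of 9 and 13 of 14 were under 1 CPM in each group.

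The 2 epimers gave measurably different transcriptomes, mostly by small steps. Of 13044 tested genes, 3957 (30.3%) differed between IsoLCA and LCA (edgeR quasi-likelihood test, Benjamini-Hochberg adjusted p under 0.05, called below): 2058 were higher with IsoLCA (15.8%) and 1899 were lower (14.6%). With trends on transcript length and GC content removed, the split was 2472 higher and 1389 lower. The median called gene differed 1.177-fold. Beyond 1.5-fold, 135 genes were higher and 329 lower with IsoLCA, and beyond 2-fold 40 were higher and 113 lower. For 7504 genes (57.5%) the 95% interval of the log2 fold change lay within 0.322 of 0. The libraries of the 2 acids did not overlap in 5569 genes (42.7%). Without LCA replicate 2 the count of called genes was 2521, and with the share of counts in exons as a covariate it was 3042 (1490 higher and 1552 lower). In bulk RNA, fewer cells of a kind and less RNA per cell cannot be told apart.

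Each acid was also set against control in the same fit. LCA changed 4765 genes (36.5%), 2312 upward (17.7%) and 2453 downward (18.8%). IsoLCA changed 1284 genes (9.84%), 486 upward (3.73%) and 798 downward (6.12%), and without control replicate 2 this count was 815. These comparisons share the control libraries with each other and the acid libraries with the direct comparison, so the values are given side by side. Counts of list members between the acids are to be read beside the shares over all tested genes, 15.8% higher and 14.6% lower. In what follows, a value after a gene name is the log2 fold change ± SE of IsoLCA minus LCA (n = 3 and 3) unless control is named, and words such as "higher", "lowered" or "fell" stand only for called differences. The ranked genes are the 12 furthest apart in each direction among called genes with at least 10 CPM in either acid and no overlap of their libraries. All 24 are described. The 6 genes named for opposite changes from control met the same limits. For these genes, being called and the lack of overlap between the acids follow from the choice.

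**Figure D1:**
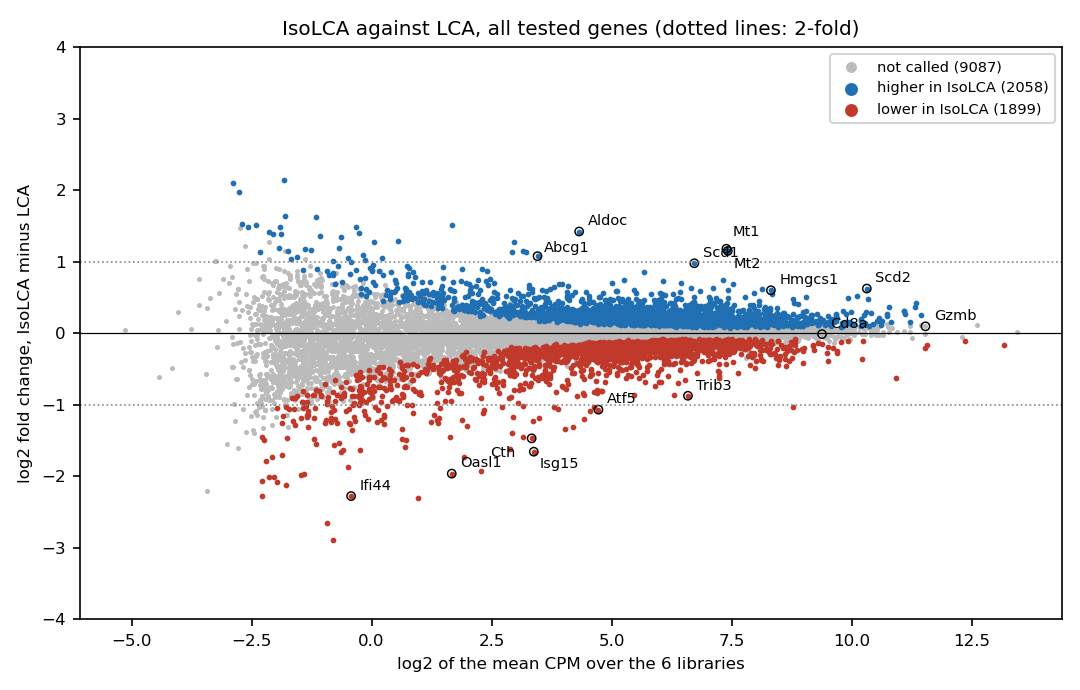
Log2 fold change of IsoLCA minus LCA (vertical) against the log2 of the mean CPM over the 6 libraries (horizontal) for the 13044 tested genes; blue points were called higher with IsoLCA (2058), red points lower (1899), and grey points were not called. Of the circled genes Isg15 (-1.66) and Cth (-1.47) lie well below 0, Aldoc (1.42) and Mt1 (1.18) well above it, and Cd8a and Gzmb, both not called, lie near it.

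Type I interferon-stimulated genes had the largest median difference between the epimers of the 39 gene lists with at least 5 tested members. Type I interferons act through STAT and IRF transcription factors, which bind interferon-stimulated response elements in the promoters of antiviral genes. Of 30 such genes, all tested, 26 were lower with IsoLCA than with LCA, 0 were higher and 4 did not pass, with a median of -0.97 beside -0.0077 over all tested genes. LCA raised 23 of them above control and lowered 1 (median 0.60). IsoLCA raised 0 and lowered 9 (median -0.20).

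Isg15 encodes a ubiquitin-like modifier. It stood at 16.5, 15.7 and 15.2 CPM in the LCA libraries, 5.80, 4.69 and 4.53 CPM with IsoLCA and 5.79, 7.715 and 4.70 CPM in control. Each LCA library was above each library of the other groups, which overlapped (-1.66 ± 0.13, adjusted p = 3.28e-09). Its promoter and that of Ifit1, which encodes an RNA-binding antiviral protein, are shown because both carry the letters of the response element. They are the 150 bases before the RefSeq start (GRCm38.p6), Isg15 at chr4:156200819-156200968 on the minus strand and Ifit1 at chr19:34640739-34640888 on the plus strand, with capitals marking matches to GAAANNGAA on either strand, 3 in each, of which some overlap:
Isg15: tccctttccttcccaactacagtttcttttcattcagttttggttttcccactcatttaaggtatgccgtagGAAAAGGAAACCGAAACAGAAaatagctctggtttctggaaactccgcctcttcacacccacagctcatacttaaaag
Ifit1: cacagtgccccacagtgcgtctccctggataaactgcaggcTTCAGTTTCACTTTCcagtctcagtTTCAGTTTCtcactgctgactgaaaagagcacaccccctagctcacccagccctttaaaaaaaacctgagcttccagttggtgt
Of the 20 list members with a RefSeq promoter of 300 bases, 13 held GAAANNGAA (65%), against 8.6% of 9909 tested genes with a promoter. The median difference was -0.95 in the 13 with a match and -1.03 in those without. A match is only a description of the letters.

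Ifit1 stood at 15.6, 14.3 and 16.8 CPM with LCA, 7.86, 5.81 and 6.72 CPM with IsoLCA and 8.49, 12.4 and 8.98 CPM in control. It rose with LCA (0.65 ± 0.15) and fell with IsoLCA (-0.55 ± 0.16) against control, so that the libraries of the epimers lay on opposite sides of all 3 control libraries. Mx1, a dynamin-like antiviral GTPase, took the same order, at 9.51, 11.5 and 10.8 CPM with LCA and 5.40, 5.14 and 3.67 CPM with IsoLCA against 8.145, 6.75 and 6.05 CPM in control. The difference between the acids was -1.17 ± 0.13 (adjusted p = 6.75e-07), and the control libraries lay between those of the 2 acids.

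Oasl1, an oligoadenylate synthetase-like gene, was scarce, with 5.235, 4.90 and 5.02 CPM under LCA and 1.54, 1.13 and 1.21 CPM under IsoLCA (-1.97 ± 0.14, 3.91-fold higher with LCA). Its relative Oasl2 (-1.73 ± 0.15) and the still scarcer Ifi44 (-2.28 ± 0.26) showed the same direction; Oasl1 and Oasl2 are relatives that could share reads. Rtp4, which encodes a receptor-transporting protein, stood at 11.99, 10.5 and 10.9 CPM with LCA and 4.83, 3.41 and 2.685 CPM with IsoLCA (-1.62 ± 0.15). Usp18, the protease that removes ISG15, differed by -1.23 ± 0.14, and Xaf1, a pro-apoptotic interferon-induced gene, by -1.06 ± 0.080. The transcription factor gene Irf7, the amplifier of the interferon response, was lower as well (-1.03 ± 0.13). The 4 members that did not pass had 95% intervals from -0.069 to 0.25 (Ifi27l2a), -0.25 to 0.0098 (Bst2), -0.35 to 0.0085 (Ifit2) and -0.38 to -0.027 (Isg20).

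Genes that respond mainly to interferon gamma differed less. Of 18 tested members of 19, 9 were lower with IsoLCA and 0 higher (median -0.14). LCA lowered 10 and raised 3 against control, and IsoLCA lowered 12 and raised 0. Cxcl10, a chemokine that recruits T cells, stood at 7.69, 6.87 and 8.46 CPM with LCA, 2.20, 1.58 and 2.22 CPM with IsoLCA and 2.20, 3.75 and 1.99 CPM in control, with no overlap between the acids (-1.93 ± 0.16). The guanylate-binding protein genes Gbp6 (-0.44 ± 0.052) and Gbp9 (-0.68 ± 0.091), members of a family whose copies could share reads, were lower with IsoLCA. Gbp2 did not pass: it stood at 112.2, 97.2 and 100.3 CPM with LCA and 118.8, 112.2 and 103.9 CPM with IsoLCA, against 183.4, 187.1 and 178.9 CPM in control, and its difference of 0.11 ± 0.062 had a 95% interval from -0.015 to 0.24; without LCA replicate 1 it was called. Irf1 was lower with IsoLCA (-0.15 ± 0.045, adjusted p = 0.0136), a call lost without LCA replicate 1 or without IsoLCA replicate 3.

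**Figure D2:**
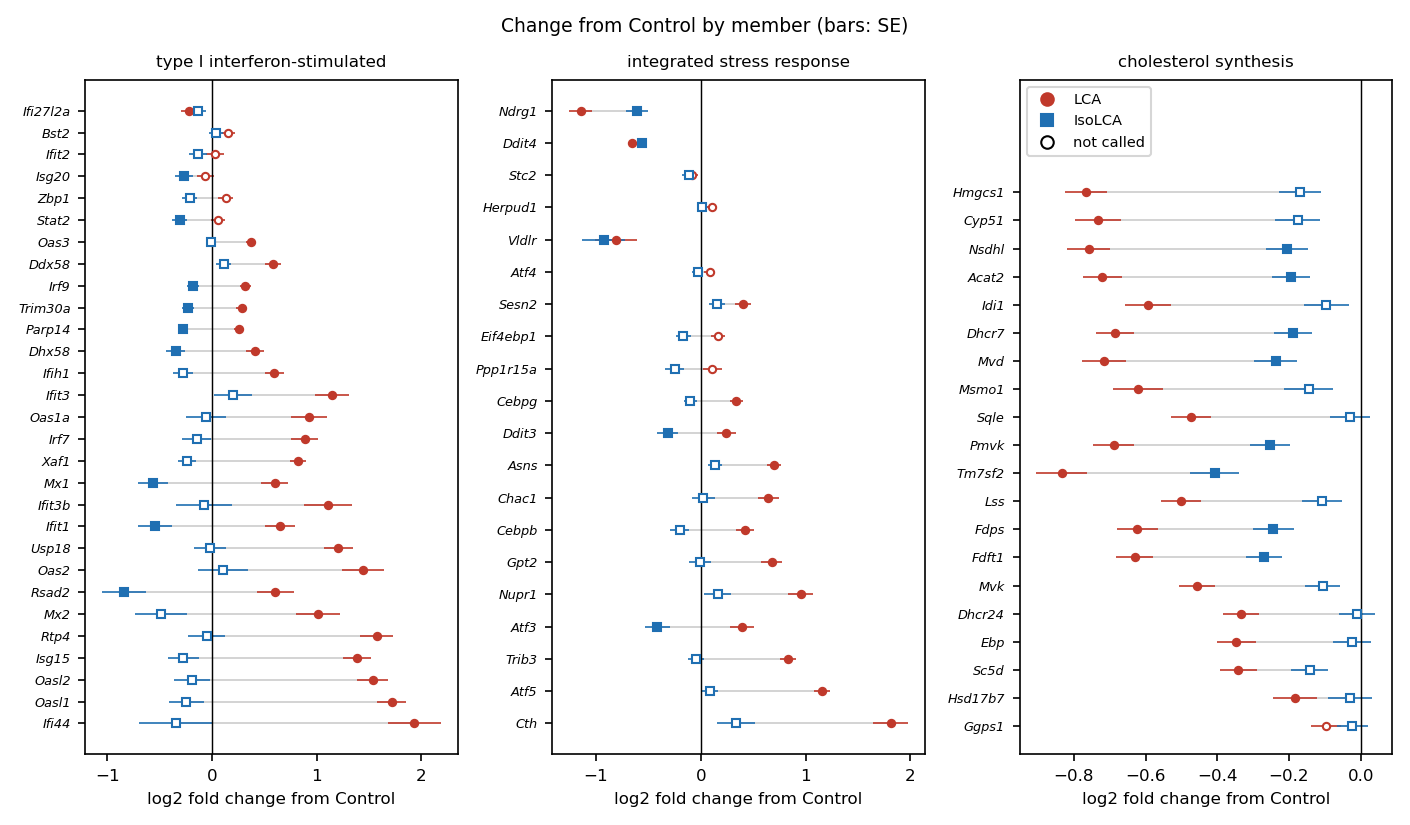
Log2 fold change from control (horizontal, bars are SE) of tested members of 3 gene lists with LCA (red circles) and IsoLCA (blue squares), with open symbols for values that were not called; members are ordered by the difference between the acids, and 1 member each of the interferon and cholesterol lists is not shown. Most interferon-stimulated genes (23 of 30 called) and 12 of 20 stress response genes were called to the right of 0 with LCA, none of either with IsoLCA, and the cholesterol synthesis genes sit furthest to the left with LCA.

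The integrated stress response showed the same order. In this pathway, amino acid shortage and other stresses lead to translation of the transcription factor ATF4, which with C/EBP partners raises genes of amino acid supply. Of 20 tested regulators and targets in a list of 22, 14 were lower with IsoLCA than with LCA, 1 was higher and 5 did not pass (median -0.50). LCA raised 12 and lowered 3 of them against control, and IsoLCA raised 0 and lowered 5. Atf4 itself did not pass (-0.12 ± 0.054, 95% interval -0.23 to -0.0055). The 1 higher gene was Ndrg1 (0.54 ± 0.11), which is also a hypoxia-induced gene.

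Cth, the enzyme that forms cysteine from cystathionine, stood at 12.8, 17.3 and 14.5 CPM with LCA, 5.32, 3.59 and 6.945 CPM with IsoLCA and 3.28, 4.55 and 4.81 CPM in control. The LCA libraries lay above all others and the rest overlapped (-1.47 ± 0.16, adjusted p = 2.29e-07, 2.78-fold higher with LCA). The transcription factor gene Atf5 had 31.6, 40.1 and 36.03 CPM with LCA against 16.5, 16.3 and 18.3 CPM with IsoLCA (-1.07 ± 0.078). Trib3, a pseudokinase gene induced by ATF4, had 117.1, 134.6 and 123 CPM against 68.65, 59.4 and 75.6 CPM, with 64.2, 73.6 and 72.45 CPM in control (-0.88 ± 0.073). For these genes the LCA libraries were the high ones, and the IsoLCA and control libraries overlapped. Atf3, a stress-induced repressor, moved in opposite directions from control, up with LCA (0.39 ± 0.11) and down with IsoLCA (-0.41 ± 0.12); its difference was -0.80 ± 0.12.

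Asns, which makes asparagine, and Atf3 are shown for the composite element of ATF4 and C/EBP, searched as TGATGNAA on both strands. The windows are the 150 bases before the start in the RefSeq promoter table, which for Asns lies upstream of the start of the transcript counted in the deposited table, Asns at chr6:7693210-7693359 and Atf3 at chr1:191183334-191183483, both on the minus strand, with the match in capitals:
Asns: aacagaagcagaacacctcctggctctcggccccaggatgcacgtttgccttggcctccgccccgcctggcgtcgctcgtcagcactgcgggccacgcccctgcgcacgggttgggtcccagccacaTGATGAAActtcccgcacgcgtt
Atf3: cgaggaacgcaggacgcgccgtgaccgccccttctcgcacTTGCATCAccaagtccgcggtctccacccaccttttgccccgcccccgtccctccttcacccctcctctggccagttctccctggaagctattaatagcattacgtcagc
Of 17 list members with a promoter, 7 held the letters (41.2%), against 2.79% of the 9909 genes. Asns stood at 229.6, 250.4 and 229.9 CPM with LCA, 165.2, 143.8 and 171.3 CPM with IsoLCA and 133.3, 154.2 and 149.9 CPM in control, and the acids did not overlap (-0.56 ± 0.062).

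Amino acid supply genes beyond that list showed this order too. In serine, one-carbon and cysteine synthesis 13 of 21 were lower with IsoLCA and 3 higher (median -0.21). The higher ones included Ahcy (0.33 ± 0.043), whose enzyme forms homocysteine, and the thymidylate synthase gene Tyms (0.24 ± 0.043). The lower ones included Aldh1l2, a mitochondrial folate enzyme (-1.40 ± 0.14), and Shmt2, the mitochondrial serine hydroxymethyltransferase (-0.42 ± 0.043); Cth counts in this list as well. Of 16 amino acid transporters 10 were lower and 0 higher (median -0.24). The glycine transporter Slc6a9 stood at 26.2, 33.7 and 30.1 CPM with LCA and 12.9, 11.75 and 14.2 CPM with IsoLCA (-1.20 ± 0.11), and the cationic amino acid transporter Slc7a3 at 31.2, 35.9 and 32.4 CPM and 15.5, 14.3 and 18.6 CPM (-1.03 ± 0.096). Slc3a2, the heavy chain shared by several transporters, differed by -0.45 ± 0.044. Of 20 cytosolic tRNA synthetases 12 were lower and 0 higher (median -0.18), among them Aars (-0.35 ± 0.033) and Sars (-0.29 ± 0.040). LCA raised 13 of the 20 against control and lowered 0, while IsoLCA raised 0 and lowered 1. Ribosome biogenesis and Myc genes had 16 of 30 lower and 0 higher (median -0.15), led by the nucleolar protein gene Nop56 (-0.39 ± 0.051); without IsoLCA replicate 2, 9 were lower.

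Lipid genes ran the other way. Cells make cholesterol through the mevalonate pathway, whose genes are driven by SREBP2 when sterols in the endoplasmic reticulum are low, while liver X receptors raise genes that export cholesterol and desaturate fatty acids when sterols are plentiful. Of 21 cholesterol synthesis genes 19 were higher with IsoLCA than with LCA, 0 lower and 2 did not pass (median 0.43). LCA lowered 20 of them against control (median -0.62) and IsoLCA lowered 9 (median -0.17), and both raised 0.

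Hmgcs1, the synthase at the start of the pathway, stood at 264.1, 251.7 and 246.5 CPM with LCA, 398.5, 371.6 and 384 CPM with IsoLCA and 414.7, 452.2 and 430.4 CPM in control. The 3 groups did not overlap, with IsoLCA between the others; the difference between the acids was 0.60 ± 0.059 (adjusted p = 5.81e-08) and that of IsoLCA from control did not pass (-0.17 ± 0.058). Acat2 (0.53 ± 0.055), an acetyl-CoA acetyltransferase, and Nsdhl (0.55 ± 0.060), a sterol dehydrogenase, were higher with IsoLCA too. The promoter of Hmgcs1 is shown for the sterol regulatory element, searched as TCACNCCAC on both strands (chr13:119690201-119690350, plus strand, the 150 bases before the start, match in capitals):
Hmgcs1: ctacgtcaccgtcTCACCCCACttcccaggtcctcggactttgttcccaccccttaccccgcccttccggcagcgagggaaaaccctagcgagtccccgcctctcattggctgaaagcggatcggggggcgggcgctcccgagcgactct
It was the 1 match among 16 members with a promoter (6.25%), against 1.36% of the 9909 genes.

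Genes of sterol sensing and uptake had 9 of 16 tested members of 17 higher with IsoLCA and 2 lower (median 0.19). Srebf1, which encodes SREBP1, stood at 130.9, 126.7 and 136.4 CPM with LCA and 162.3, 179.1 and 166.6 CPM with IsoLCA (0.37 ± 0.040). The lower members were Npc1 (-0.10 ± 0.035), a cholesterol transporter of the lysosome, and Soat2, which esterifies cholesterol. Their count was 1 without IsoLCA replicate 1 or 2 or LCA replicate 2 or 3, and in 4 other settings. Soat2 stood at 24.6, 29.9 and 28.9 CPM with LCA, 13.7, 16.25 and 15.7 CPM with IsoLCA and 21.99, 20.3 and 19.03 CPM in control, above control with LCA (0.44 ± 0.095) and below it with IsoLCA (-0.43 ± 0.10). Its difference between the acids was -0.87 ± 0.097.

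Of 14 liver X receptor targets 8 were higher with IsoLCA and 0 lower (median 0.28). Abcg1, a cholesterol exporter, stood at 8.28, 5.97 and 6.88 CPM with LCA, 14.75, 14.8 and 15.15 CPM with IsoLCA and 27.04, 27.9 and 27.8 CPM in control (1.08 ± 0.097, adjusted p = 2.14e-08). The 3 groups were fully apart, and both acids lowered it against control (-1.96 ± 0.093 with LCA, -0.89 ± 0.084 with IsoLCA). Abca1, the other main exporter, was scarce, at 0.197, 0.196 and 0.250 CPM with LCA, 0.6005, 0.6695 and 0.714 CPM with IsoLCA and 0.774, 1.02 and 0.773 CPM in control (1.62 ± 0.30). Arl4c, a small GTPase gene, differed by 0.41 ± 0.033.

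Fatty acid synthesis and desaturation genes had 11 of 20 higher and 2 lower (median 0.19), the latter being Dgat1 (-0.43 ± 0.081) and Agpat3 (-0.13 ± 0.049) of glyceride synthesis. The count of lower genes was 1 with length and GC trends removed and without any 1 of IsoLCA replicates 1 and 2 and LCA replicates 1, 2 and 3. The desaturase Scd1 stood at 80.2, 62.2 and 71.2 CPM with LCA, 146, 125.8 and 148.5 CPM with IsoLCA and 218.8, 249.1 and 237.7 CPM in control (0.98 ± 0.10). Again IsoLCA lay between LCA and control with no overlap. Its relative Scd2 was higher with IsoLCA (0.62 ± 0.049), as was the acyl-CoA synthetase gene Acsl3 (0.46 ± 0.052), while Fasn, the fatty acid synthase gene, did not pass (-0.014 ± 0.061, 95% interval -0.14 to 0.11). In mitochondrial fatty acid oxidation 8 of 20 tested members of 22 were higher and 1 lower, with Hadh (0.21 ± 0.050) and Hadhb (0.18 ± 0.045) higher and the thioesterase gene Acot2 lower (-0.66 ± 0.12); with the share of counts in exons as a covariate 3 were higher.

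**Figure D3:**
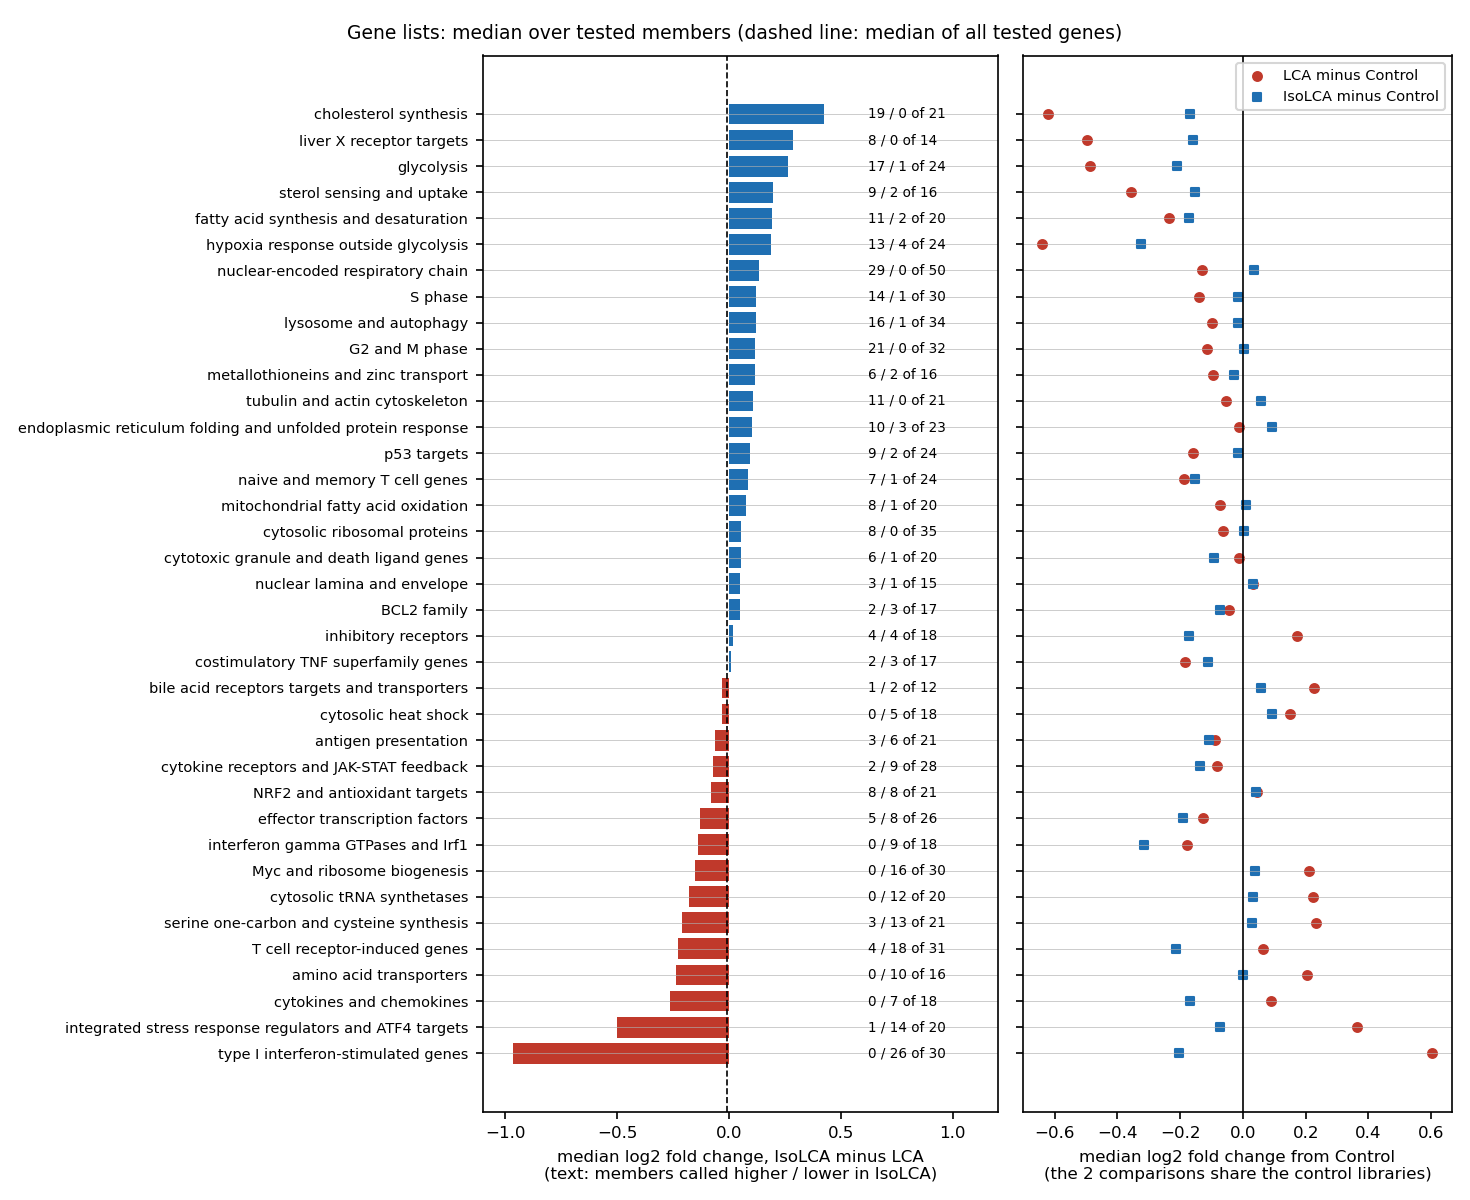
Left: median log2 fold change of IsoLCA minus LCA over the tested members of each list with at least 5 of them, cell type markers left out (bars), with the members called higher and lower in text and the median of all tested genes as a dashed line. Right: medians from control with LCA (red circles) and IsoLCA (blue squares). IsoLCA medians lie nearer 0 than LCA medians for lists such as cholesterol synthesis (-0.17 against -0.62). They lie further from 0 for others, such as T cell receptor-induced genes (-0.21 against 0.063) and interferon gamma genes (-0.32 against -0.18).

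Glycolysis genes were higher with IsoLCA than with LCA in 17 of 24 members, lower in 1 and not passing in 6 (median 0.26). Activated T cells rely on glycolysis, and many of its genes are also targets of the hypoxia-inducible factor HIF1. LCA lowered 21 of the 24 against control and raised 1, and IsoLCA lowered 16 and raised 0. The 1 lower member was the enolase Eno3 (-0.20 ± 0.049). Aldoc, an aldolase, was the ranked gene that IsoLCA held furthest above LCA. It stood at 11.7, 9.84 and 11.04 CPM with LCA, 29.97, 30.4 and 27.2 CPM with IsoLCA and 42.5, 51.8 and 41.3 CPM in control, 3 groups without overlap (1.42 ± 0.12, adjusted p = 1.3e-08, 2.68-fold). The lactate exporter Slc16a3 stood at 148.2, 132.3 and 142 CPM with LCA and 232.7, 222.9 and 224.6 CPM with IsoLCA (0.69 ± 0.062), and the mutase Pgam1 differed by 0.50 ± 0.047 and lactate dehydrogenase Ldha by 0.42 ± 0.055.

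Of 24 hypoxia response genes outside glycolysis, 13 were higher with IsoLCA and 4 lower (median 0.19). LCA lowered 17 and raised 2 against control, and IsoLCA lowered 19 and raised 0. P4ha2, a collagen prolyl hydroxylase, stood at 4.915, 4.32 and 5.08 CPM with LCA, 10.3, 9.555 and 11.4 CPM with IsoLCA and 16.3, 23.45 and 17.04 CPM in control (1.13 ± 0.20). The mitophagy receptors Bnip3 (0.75 ± 0.089) and Bnip3l (0.69 ± 0.082) and the lysyl hydroxylase Plod2 (0.57 ± 0.068) were higher with IsoLCA. The gene of the factor itself went the other way: Hif1a stood at 484.9, 501.8 and 473.4 CPM with LCA, 391.9, 362.5 and 397.1 CPM with IsoLCA and 495.9, 526.2 and 496.5 CPM in control (-0.34 ± 0.043). Vegfa, a growth factor for vessels, was also lower with IsoLCA (-0.48 ± 0.084), as were Bhlhe40 (-0.31 ± 0.054), a transcriptional repressor, and the carbonic anhydrase Car12 (-0.25 ± 0.083).

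Nuclear-encoded genes of the respiratory chain were higher with IsoLCA in 29 of 50 members and lower in 0 (median 0.13), by small steps such as Cox6b1 (0.42 ± 0.040), Cox7b (0.38 ± 0.038) and Ndufb3 (0.36 ± 0.055). LCA lowered 31 of the 50 against control and IsoLCA lowered 1, and neither raised any. These 2 comparisons share the control libraries. Cell cycle genes showed steps of the same size. Of 32 genes of the G2 and M phases 21 were higher with IsoLCA and 0 lower, with the cyclin Ccnb2 (0.28 ± 0.048), the centromere histone Cenpa (0.21 ± 0.038) and Birc5 (0.19 ± 0.034) in front. Of 30 S phase genes 14 were higher and 1, Cdt1, lower (-0.13 ± 0.041), with the ribonucleotide reductase Rrm1 (0.26 ± 0.046) and the histone mRNA-binding protein Slbp (0.23 ± 0.036) among the higher. LCA lowered 20 and 18 genes of these lists against control and IsoLCA 0 and 1. The share of counts in exons, 80.7% with LCA and 83.3% with IsoLCA, moved with these lists: with it as a covariate 11 and 8 genes were higher. Without LCA replicate 2 the counts were 12 and 8, and without IsoLCA replicate 1 or LCA replicate 3 the G2 and M count was 13.

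Metallothioneins, small proteins that bind zinc and copper and are induced by metals through the factor MTF1, were higher with IsoLCA than with LCA. Mt1 stood at 98.3, 107.5 and 102.9 CPM with LCA, 244.2, 227.6 and 226.8 CPM with IsoLCA and 91.98, 96.1 and 89.9 CPM in control. The IsoLCA libraries lay above all others, and the LCA libraries lay just above control, by 0.15 ± 0.062, which did not pass, against 1.33 ± 0.061 with IsoLCA. Mt2 stood at 103, 114.7 and 102.2 CPM with LCA, 247, 226.7 and 235.2 CPM with IsoLCA and 65.7, 71.75 and 61.8 CPM in control, rising with both acids (0.68 ± 0.073 and 1.83 ± 0.073). The differences between the acids were 1.18 ± 0.060 for Mt1 (adjusted p = 1.79e-12) and 1.15 ± 0.071 for Mt2 (adjusted p = 4.28e-11). The genes are close relatives that could share reads.

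Both promoters are shown for the metal response element, searched as TGCACNC and TGCGCNC on both strands, in the 150 bases before the RefSeq start (Mt1 at chr8:94178939-94179088 and Mt2 at chr8:94172468-94172617, plus strand, matches in capitals, 1 in Mt1 and 2 in Mt2):
Mt1: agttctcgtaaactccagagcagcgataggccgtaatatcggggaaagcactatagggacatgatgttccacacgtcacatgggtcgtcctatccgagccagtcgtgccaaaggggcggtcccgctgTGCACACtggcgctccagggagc
Mt2: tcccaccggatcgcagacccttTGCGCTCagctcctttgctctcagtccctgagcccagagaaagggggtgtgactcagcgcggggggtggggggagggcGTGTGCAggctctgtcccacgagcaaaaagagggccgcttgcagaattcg
In the 300-base window both genes held both forms, which occurred in 15.1% and 29.7% of the 9909 promoters, so these short letters are common. In the list of 16 metallothionein and zinc transport genes, 6 were higher with IsoLCA and 2 lower, beside 15.8% and 14.6% over all tested genes. The lower ones were the importer Slc39a10 (-0.28 ± 0.079) and Mtf1 itself (-0.13 ± 0.044). The lower count was 0 without IsoLCA replicate 2 or LCA replicate 1, and 1 without LCA replicate 2 or 3. Slc30a1, the zinc exporter of the plasma membrane, stood at 17.7, 17.6 and 17.45 CPM with LCA, 20.6, 19.5 and 20.9 CPM with IsoLCA and 12.7, 11.3 and 11.02 CPM in control (0.21 ± 0.063), and the importer Slc39a8 differed by 0.29 ± 0.070. Antioxidant targets of the factor NRF2 were split, with 8 of 21 tested members of 22 higher and 8 lower. Gclc, for glutathione synthesis, was lower with IsoLCA (-0.32 ± 0.042), as were Sqstm1 (-0.30 ± 0.059) and the scarce Nqo1 (-0.63 ± 0.17), and the pentose phosphate enzyme Pgd was higher (0.20 ± 0.038).

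Among genes induced by the T cell receptor, of which several are NF-kappaB targets, more were lower than higher with IsoLCA. Of 31 such genes 18 were lower, 4 higher and 9 did not pass (median -0.23). LCA raised 9 and lowered 9 against control, and IsoLCA raised 0 and lowered 12. Nfkbia, the inhibitor that NF-kappaB itself induces, stood at 56.1, 54.5 and 60.9 CPM with LCA, 30.7, 29.9 and 32.9 CPM with IsoLCA and 31.9, 37.6 and 31.7 CPM in control (-0.87 ± 0.071). Relb, an NF-kappaB subunit, stood at 31.6, 31.6 and 31.8 CPM with LCA, 14.4, 15.1 and 15.15 CPM with IsoLCA and 14.2, 16.9 and 14.6 CPM in control (-1.09 ± 0.084). In both, LCA was high and the IsoLCA and control libraries overlapped. The precursor gene Nfkb2 differed in the same direction (-0.70 ± 0.060).

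For the early response gene Egr3 it was IsoLCA that lay apart from control. Egr3 stood at 9.265, 8.55 and 8.765 CPM with LCA and 7.99, 9.54 and 8.78 CPM in control, which overlapped, and at 3.92, 4.99 and 4.16 CPM with IsoLCA, below both (-1.03 ± 0.10, -1.01 ± 0.11 from control). Nr4a3, a nuclear receptor induced by receptor signals, rose with LCA (0.56 ± 0.072) and fell with IsoLCA (-0.27 ± 0.077); the levels were 28.6, 27.3 and 25.6 CPM and 15.5, 13.6 and 16.5 CPM. Nr4a1 (-0.53 ± 0.074), Egr1 (-0.65 ± 0.10) and the activation marker Cd69 (-0.54 ± 0.063) were lower with IsoLCA as well. Irf4, a factor whose level follows receptor signal strength, was 1 of the 4 higher members (0.20 ± 0.037), with Batf (0.29 ± 0.056), Spry1 (0.22 ± 0.084) and Dusp6 (0.18 ± 0.062); 2 were higher with the share of counts in exons as a covariate and without IsoLCA replicate 1 or 3 or LCA replicate 2 or 3. Irf4 stood at 207.7, 193.7 and 196.5 CPM with LCA, 226.1, 230.8 and 229.8 CPM with IsoLCA and 352.4, 367.7 and 365.2 CPM in control.

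Of 18 tested cytokine and chemokine genes in a list of 28, 7 were lower with IsoLCA and 0 higher (median -0.26). Ccl5 stood at 23.3, 26.9 and 27.8 CPM with LCA, 10.9, 10.3 and 10.1 CPM with IsoLCA and 11.3, 15.1 and 11.99 CPM in control (-1.32 ± 0.12, 2.49-fold higher with LCA). Ifng, the gene of interferon gamma, was scarce at 5.04, 3.45 and 5.38 CPM with LCA and 3.145, 2.10 and 2.54 CPM with IsoLCA, without overlap, and 3.56, 5.48 and 4.25 CPM in control (-0.83 ± 0.18, adjusted p = 0.00124). Lif stood at 75.5, 74.4 and 74.2 CPM with LCA, 45.2, 34.8 and 53.99 CPM with IsoLCA and 98.8, 103.4 and 106.7 CPM in control (-0.74 ± 0.13), so that here the IsoLCA libraries lay furthest from control. The scarce Ccl3 (-0.97 ± 0.22) and Ccl4 (-0.81 ± 0.19) were lower too.

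Of 20 cytotoxic granule genes 6 were higher with IsoLCA, 1 was lower and 13 did not pass (median 0.05). Over all tested genes 15.8% were higher and 14.6% lower. With the share of counts in exons as a covariate, or without IsoLCA replicate 1, LCA replicate 2 or LCA replicate 3, 2 of the list were higher. The higher genes were Serpinb6b (0.44 ± 0.10), Prf1, Nkg7 (0.21 ± 0.064), Srgn (0.17 ± 0.056), Cst7 (0.16 ± 0.049) and Lamp1 (0.12 ± 0.041). Gzmb, the main granzyme, stood at 3075, 2640 and 2915 CPM with LCA, 3256, 2729 and 3226 CPM with IsoLCA and 3611, 3696 and 4045 CPM in control, and the acids overlapped (0.094 ± 0.085, 95% interval -0.082 to 0.27). Prf1, perforin, stood at 17.55, 17.1 and 17.4 CPM with LCA and 20.8, 18.2 and 24.95 CPM with IsoLCA (0.30 ± 0.11, adjusted p = 0.033), a call lost with the share of counts in exons as a covariate and without any 1 of IsoLCA replicates 1 and 3 and LCA replicates 1, 2 and 3. Gzmc was the 1 lower gene, at 33.8, 33.55 and 36.9 CPM with LCA, 19.1, 18.6 and 21.6 CPM with IsoLCA and 16.3, 16.5 and 17.8 CPM in control (-0.81 ± 0.064).

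Receptors and transcription factors of T cell state were mixed. The list of inhibitory receptors also holds the ligand genes Cd274 and Pdcd1lg2 and the transcription factor gene Tox. Of its 18 tested members of 19, 4 were higher and 4 lower, beside 15.8% and 14.6% over all tested genes. The lower ones were Cd274, Lilrb4a, Pdcd1lg2 (-0.46 ± 0.094) and Cd200 (-0.43 ± 0.088), and the higher ones Vsir, Cd160 (0.38 ± 0.097), Tox (0.23 ± 0.059) and Cd244 (0.23 ± 0.081). The checkpoint ligand gene Cd274 stood at 27.85, 29.4 and 27.3 CPM with LCA and 18.2, 18.01 and 19.3 CPM with IsoLCA (-0.60 ± 0.082), Lilrb4a differed by -0.83 ± 0.15, and Vsir, the gene of the checkpoint VISTA, by 0.34 ± 0.044. The naive and memory list had 7 of 24 higher and 1 lower, beside 15.8% and 14.6% over all tested genes. The lower one was Il7r (-0.14 ± 0.053), a call lost without IsoLCA replicate 1 or 2 or LCA replicate 1 or 2. The chemokine receptor gene Cxcr3 stood at 26.3, 22.3 and 25.55 CPM with LCA, 32.2, 38.25 and 31.6 CPM with IsoLCA and 33.2, 29.2 and 35.3 CPM in control (0.46 ± 0.088), so that LCA was low and IsoLCA and control overlapped. Klf2, a factor of quiescent and migrating T cells, was higher with IsoLCA (0.58 ± 0.16), with 15.2, 13.7 and 16.03 CPM against 20.04, 30.4 and 17.3 CPM, a call lost without IsoLCA replicate 2; without that library 3 of the 24 were higher. Tcf7, a factor of memory cells, did not pass (0.27 ± 0.13, 95% interval 0.0019 to 0.54) and was called without IsoLCA replicate 3. Of 26 tested effector transcription factors of 27, 5 were higher and 8 lower, beside 15.8% and 14.6% over all tested genes. The lower ones included Ikzf3 (-0.50 ± 0.061) and Gfi1 (-0.56 ± 0.071). The higher ones were Id3 (0.46 ± 0.059), Runx1 (0.61 ± 0.16), Id2 (0.18 ± 0.048), Batf and Irf4. Id3 counts in the naive and memory list as well.

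**Figure D4:**
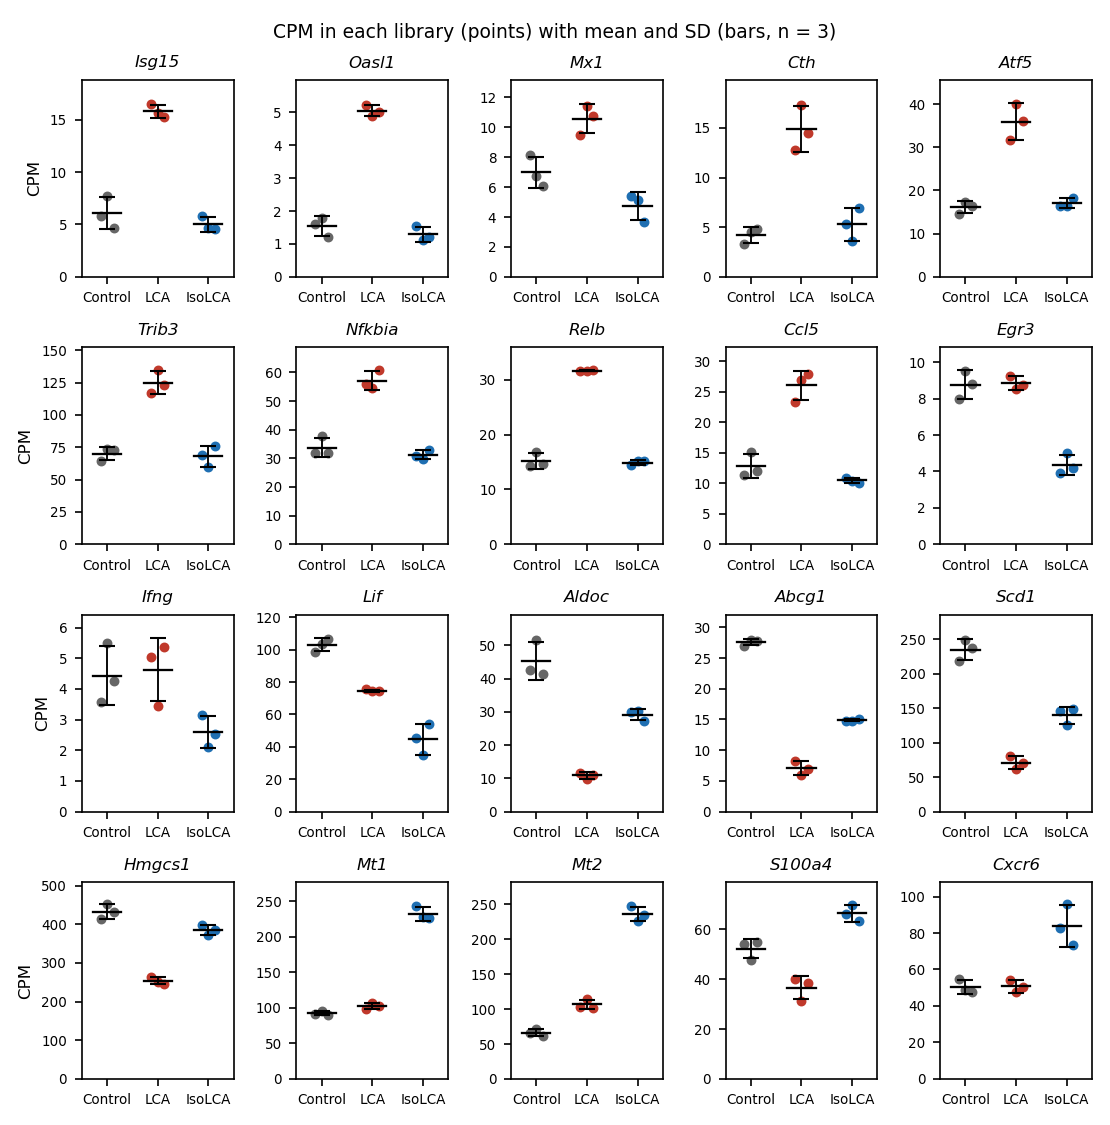
CPM (vertical, linear from 0) in each of the 3 control (grey), 3 LCA (red) and 3 IsoLCA (blue) libraries for 20 genes, with the mean and SD as bars. From Isg15 to Ccl5 the LCA libraries are the high ones, for Egr3 and Ifng the IsoLCA libraries are low, from Aldoc to Hmgcs1 the LCA libraries are low, and for Mt1, Mt2, S100a4 and Cxcr6 the IsoLCA libraries are high.

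The remaining ranked genes included effector, homing and antigen presentation genes. S100a4, a calcium-binding protein gene of effector cells, stood at 39.9, 31.2 and 38.3 CPM with LCA, 65.96, 69.8 and 63.3 CPM with IsoLCA and 54.01, 47.7 and 54.7 CPM in control, lower than control with LCA (-0.51 ± 0.090) and higher with IsoLCA (0.35 ± 0.087). Among genes that met the limits for ranking, 37 were called in opposite directions from control by the 2 acids, S100a4 among them. Cxcr6, a homing receptor gene of resident CD8+ T cells, stood at 54.4, 47.4 and 50.4 CPM with LCA, 82.6, 95.6 and 73.2 CPM with IsoLCA and 54.7, 48.7 and 47.7 CPM in control (0.72 ± 0.095), so that the IsoLCA libraries stood above the rest and LCA and control overlapped. The invariant chain gene Cd74 stood at 11.97, 13.8 and 13.6 CPM with LCA, 4.89, 4.595 and 4.83 CPM with IsoLCA and 4.27, 4.96 and 4.92 CPM in control (-1.46 ± 0.098). Its protein chaperones class II molecules in antigen-presenting cells. The class II genes H2-Ab1 (0.52 ± 0.10) and H2-Eb1 (0.71 ± 0.25) went the other way, at 14.3, 13.3 and 14.6 CPM with LCA and 21.6, 18.5 and 20.3 CPM with IsoLCA for H2-Ab1. Among 21 antigen presentation genes 3 were higher and 6 lower, beside 15.8% and 14.6% over all genes, and without LCA replicate 3 the lower ones were 3. Of the marker lists, the summed myeloid markers were highest with LCA and the summed B cell markers lowest. With 13 of 14 and 8 of 9 of these markers under 1 CPM in each group, the sums rest on few genes. Their part in these values was not tested. The other ranked genes higher with IsoLCA were Pygl (1.27 ± 0.20), glycogen phosphorylase, Acvrl1 (1.14 ± 0.11), a receptor of the TGF-beta family, and the endoribonuclease gene Endou (1.14 ± 0.12).

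The noncoding RNA Kcnq1ot1 was among the ranked genes lower with IsoLCA, at 19.9, 32.0 and 18.4 CPM with LCA and 5.60, 10.1 and 11.9 CPM with IsoLCA (-1.34 ± 0.31). It runs antisense to Kcnq1 and the sources used here give no strand setting, so reads of the 2 genes cannot be told apart. With the share of counts in exons as a covariate its difference was -0.64 (adjusted p = 0.0146).

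For some genes the epimers gave like changes. For 542 genes both acids gave a called change from control in 1 direction, at least 10 CPM was reached in a group and the 95% interval of their log2 difference lay within 0.322 of 0. Acp5, which encodes an acid phosphatase, stood at 10.3, 10.1 and 9.79 CPM with LCA, 10.3, 10.5 and 8.45 CPM with IsoLCA and 32.9, 35.9 and 32.1 CPM in control. The acids overlapped and both were far below control (-0.054 ± 0.086 between the acids, 95% interval -0.23 to 0.12, and -1.74 ± 0.077 and -1.79 ± 0.077 from control). The immunity-associated GTPase genes Gimap3 (-0.028 ± 0.059) and Gimap7 (0.032 ± 0.047), relatives that could share reads, were lowered alike. Cd93 (-0.033 ± 0.078), the Ras regulators Rasa3 (0.12 ± 0.088) and Spred2 (0.098 ± 0.078) and the leukotriene receptor gene Ltb4r1 (0.057 ± 0.086) did not pass between the acids. Gimap4 met the same limit though its small difference was called (0.14 ± 0.040). Prdm1, the gene of the effector factor Blimp-1, stood at 18.4, 17.6 and 16.9 CPM with LCA, 16.4, 18.9 and 18.3 CPM with IsoLCA and 30.3, 30.55 and 30.7 CPM in control (0.017 ± 0.062, 95% interval -0.11 to 0.14).

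**Figure D5:**
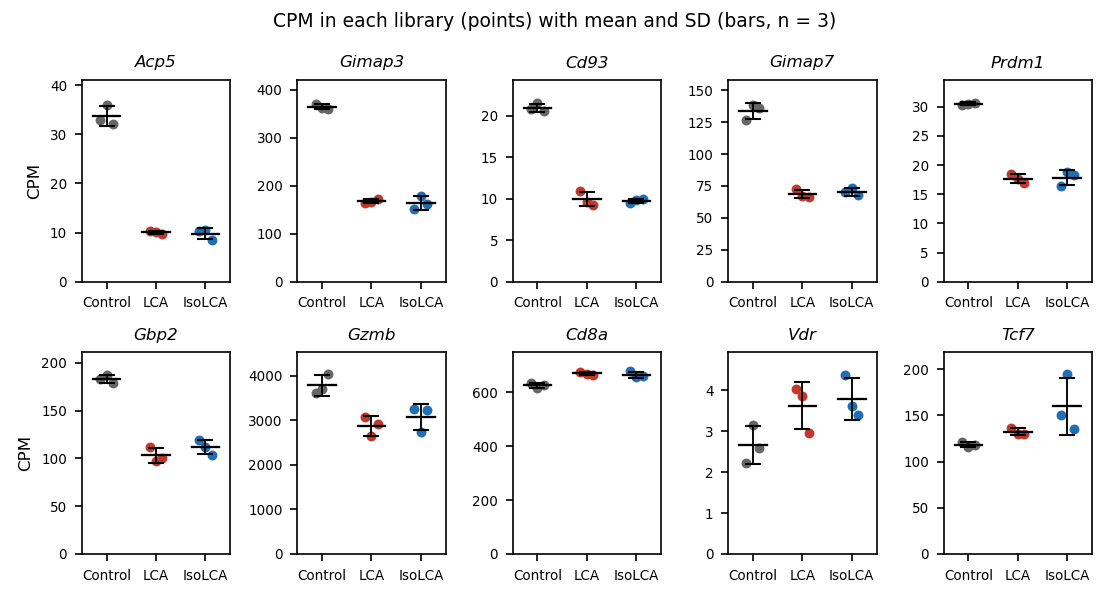
CPM (vertical, linear from 0) in each control (grey), LCA (red) and IsoLCA (blue) library for 10 genes not called between the acids, with the mean and SD as bars. Acp5, Gimap3, Cd93, Gimap7 and Prdm1 are lower than control with both acids, and the LCA and IsoLCA libraries overlap in each of the 10.

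Bile acid receptors themselves were sparse in these cells. Of 31 receptor, target and transporter genes 12 could be tested, of which 1 was higher with IsoLCA and 2 lower, near the shares over all genes (15.8% and 14.6%). Rxra, the partner of several nuclear receptors, stood at 35.1, 32.7 and 34.2 CPM with LCA, 44.9, 43.2 and 47.4 CPM with IsoLCA and 22.05, 19.4 and 22.4 CPM in control, 3 groups without overlap (0.41 ± 0.064). The vitamin D receptor gene Vdr stood at 4.03, 3.87 and 2.97 CPM with LCA and 4.375, 3.62 and 3.40 CPM with IsoLCA, which overlapped (0.062 ± 0.14, 95% interval -0.23 to 0.35), against 2.23, 3.16 and 2.60 CPM in control. It was called higher than control with both acids (0.45 ± 0.15 with LCA, 0.51 ± 0.15 with IsoLCA), though its LCA and control libraries overlapped. The exporter Abcc1 was lower with IsoLCA (-0.23 ± 0.039), and Slco3a1 (-0.14 ± 0.052, adjusted p = 0.0418) lost its call in 9 of the alternatives tried. Nr1h4 and Gpbar1, the farnesoid X receptor and membrane bile acid receptor genes, did not exceed 0.0985 CPM in any of the 9 libraries. The type 17 list had 4 tested members of 12, with Batf higher (0.29 ± 0.056) and Maf lower (-0.56 ± 0.17).

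The nuclear lamina gene Lmna rose with both acids and more with IsoLCA. It stood at 18.7, 19.03 and 18.5 CPM with LCA, 23.65, 23.1 and 24.2 CPM with IsoLCA and 7.43, 6.94 and 6.55 CPM in control, without overlap (0.34 ± 0.056; 1.43 ± 0.066 and 1.77 ± 0.065 from control). Of 15 lamina and envelope genes 3 were higher with IsoLCA and 1 lower, near the shares over all genes (15.8% and 14.6%), with Lbr (0.17 ± 0.033) and Lmnb1 (0.13 ± 0.034) the other higher ones and Lemd2 (-0.21 ± 0.046) the lower.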

How the data were processed

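Libraries were RNA-seq of CD8+ T cells from an ultra-low input kit, per the labels' protocols. The deposited table holds estimated counts per gene, which the authors made with HOMER from reads in exons of mm10, unnormalised, per the file headers; STAR, DESeq2 and GRCm38 are named in the submitters' processing notes. The counts come in steps of 0.5, with 29.43% of values not whole, and were rounded to whole numbers. Whole counts had been assumed when the test was set, and the same test was kept. The headers give no strand setting.

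All 24 libraries (3 in each of 8 groups, 25998051 to 41024340.5 counts in genes) were fitted together in edgeR 4.0.16 (R 4.3.3, limma 3.58.1) with TMM scaling, its default filter on low counts and the quasi-likelihood test. Genes were called at a Benjamini-Hochberg adjusted p under 0.05 over 13044 genes. CPM are counts scaled to each library's total in genes, corrected by the TMM factor. The SE is the fold change divided by the square root of the F statistic, so it takes its spread from all 24 libraries (16 residual degrees of freedom), and the 95% intervals are not adjusted over genes. Counts were also simulated for this comparison (12871 genes), with 100 genes given a 1.2-fold and 100 a 1.5-fold change. The test recovered 62% and 92% of these, and 4.35% of its calls were false. The simulation gave every gene 1 common spread between libraries (a coefficient of variation of 4.41%), whereas the spread of the measured genes differs. These shares are therefore not error rates of the calls reported here.

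The members and gene lists were chosen with earlier results of these data known. Genes were named by a rule: the 12 furthest apart in each direction, the 3 lowest adjusted p in each list, 6 genes with opposite changes from control, 8 with like changes, and a fixed set. Other genes, among them Oasl2, Ifi44, Irf7, Asns, Hif1a, Vegfa, Nfkb2, Nr4a1, Egr1, Cd69, Ccl3, Ccl4, Slc30a1, Nqo1, Fasn, Ldha, Malat1 and Gas5, and the members named only to spell out counts of 8 or fewer, were chosen after their values were seen. Promoters are from RefSeq (GRCm38.p6), 250 bases before to 50 after the start. Alternatives were DESeq2 1.42.0, other scalings and filters, a 6-library fit, a replicate block, covariates for exon share, length and GC, and leaving out each library. Some list members are counted but not reported singly here.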

Additional observations from a re-analysis of the deposited data

How the results depend on the processing

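The count of genes differing between IsoLCA and LCA was 3957 and ranged from 2521 (without LCA replicate 2) to 3897 with 1 library of either acid left out. The genes lower with IsoLCA numbered 1899, and 1146 (without LCA replicate 2) to 1863 in those fits, with 1198 without IsoLCA replicate 1. The 1284 genes that IsoLCA changed from control became 815 (without control replicate 2) to 1198. Other settings gave 3042 (exon share as covariate, 2540 of them shared with the 3957) to 4218 genes. Removing length and GC trends turned the split into 2472 higher and 1389 lower (64% higher, against 52%). With the exon share as a covariate slightly more genes were lower than higher, 1552 against 1490 (49% higher). Same-numbered IsoLCA and LCA libraries had correlated deviations of 0.265, 0.148 and 0.0745, and each IsoLCA library correlated best with its own number. Same-numbered values with control were -0.307, -0.0131 and 0.0298 for IsoLCA and -0.24, -0.00415 and -0.0398 for LCA. These values do not settle whether libraries are paired by number. The replicate block gave 4218 genes. Of the named genes' alternatives 2460 kept their call, 45 lost it and 3 gained it, and no call of a named gene changed direction. Of the list counts 1044 stayed within 1.5 times, 99 became smaller and 27 larger. Counts were scored by size only, so this scoring cannot show a reversal. The median of all genes was -0.008, and 0.022 with length and GC trends removed. At this depth, differences of 1.2-fold were often missed in simulation.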

Other observations

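Of 34 lysosome and autophagy genes 16 were higher with IsoLCA than with LCA and 1 was lower. The cathepsin gene Ctsb stood at 114.8, 108 and 107 CPM with LCA and 143.1, 137.3 and 131 CPM with IsoLCA, which did not overlap (0.32 ± 0.044). Ctsc, another cathepsin (0.37 ± 0.042), and Map1lc3b, which encodes the autophagosome protein LC3B (0.35 ± 0.046), were higher as well, and the 1 lower gene was the autophagy receptor Sqstm1 (-0.30 ± 0.059). Of 24 p53 targets 9 were higher and 2 lower, Plk3 (-0.63 ± 0.11) and Sesn2 (-0.25 ± 0.075); the lower count was 1 without IsoLCA replicate 2 or LCA replicate 2. Among the higher ones Ccng1, cyclin G1, stood at 285.2, 247.3 and 261.4 CPM with LCA, 399.5, 379.7 and 379.1 CPM with IsoLCA and 374.4, 357.6 and 387.9 CPM in control (0.54 ± 0.070), and Phlda3 (0.69 ± 0.096) and Trp53inp1 (0.64 ± 0.092) followed. In the BCL2 family 2 of 17 tested genes were higher, Bax (0.37 ± 0.055) and Bad (0.23 ± 0.066), and 3 were lower, Bid (-0.17 ± 0.062) and the close relatives Bcl2a1d (-0.38 ± 0.11) and Bcl2a1b (-0.30 ± 0.092), which could share reads. These counts lie near the shares over all genes (15.8% higher and 14.6% lower). The higher count was 1 without IsoLCA replicate 3 or LCA replicate 2, and the lower count was 1 without IsoLCA replicate 2 or LCA replicate 3.

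Of 23 protein folding genes of the endoplasmic reticulum 10 were higher with IsoLCA and 3 lower, among them the disulfide isomerase Pdia6 (0.33 ± 0.050) and the chaperone Hsp90b1 (0.26 ± 0.042) above and the stress sensor Ern1 (-0.44 ± 0.12), Xbp1 (-0.16 ± 0.058) and Sel1l (-0.13 ± 0.034) below. With the share of counts in exons as a covariate, or without IsoLCA replicate 1, 6 were higher, and 1 was lower without LCA replicate 2 or with length and GC trends removed. Of 18 cytosolic heat shock genes 5 were lower and 0 higher, Bag3 (-0.34 ± 0.087), Hspa8 (-0.21 ± 0.038), Hsph1 (-0.17 ± 0.044), Chordc1 (-0.16 ± 0.039) and Hsp90ab1 (-0.11 ± 0.034), which became 8 with that covariate and 3 with length and GC trends removed. Of 21 tubulin and actin genes 11 were higher, led by Tuba1a (0.39 ± 0.039), Vim (0.25 ± 0.034) and Tpm4 (0.30 ± 0.043), and 0 lower. With the covariate 6 were higher, and without IsoLCA replicate 1 or LCA replicate 2, 7. Of 35 ribosomal protein genes 8 were higher and 0 lower, for example Rpl22 (0.17 ± 0.039), and 4 with the covariate or without IsoLCA replicate 1 or LCA replicate 2.

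In cytokine receptors and their feedback 9 of 28 were lower with IsoLCA and 2 higher, Il6ra (0.53 ± 0.16) and the kinase Pim2 (0.51 ± 0.063), and 1 was higher without IsoLCA replicate 2 or LCA replicate 3. The interferon gamma receptor chain Ifngr2 (-0.55 ± 0.083) and Il27ra (-0.28 ± 0.042) were lower. Without IsoLCA replicate 1 or LCA replicate 2, 4 were lower, and with length and GC trends removed 5. Of 17 tested costimulatory genes 2 were higher, Tnfsf4 (0.60 ± 0.13) and Icos (0.21 ± 0.059), and 3 lower, Tnfrsf4 (-0.43 ± 0.082), Tnfsf11 (-0.32 ± 0.10) and Ltb (-0.16 ± 0.039), again near the shares over all genes. Among markers of T cells 8 of 13 tested were higher, such as Cd3g (0.35 ± 0.046) and Thy1 (0.21 ± 0.044), with a summed level of 5156 to 5436 CPM with LCA and 5786 to 5985 CPM with IsoLCA. Summed markers of NK cells reached 188.5 to 204 CPM and 215.9 to 227.7 CPM in the same order, with 7 of the 9 under 1 CPM in each group. Most of each sum was Nkg7 (mean 171.7 CPM with LCA and 198.6 CPM with IsoLCA), which also counts among the cytotoxic granule genes, so the sum is not a level of NK cells. Nkg7 was higher (0.21 ± 0.064). The scarce Ncr1 was called lower (-1.05 ± 0.37) though its libraries overlapped, at 0.295, 0.476 and 0.222 CPM with LCA and 0.229, 0.152 and 0.0985 CPM with IsoLCA. Summed markers of CD4+ T cells reached 60.7 to 66.1 CPM with LCA and 50.7 to 56.0 CPM with IsoLCA, with Zbtb7b lower (-0.32 ± 0.049). Those of stromal and erythroid cells reached 35.5 to 41.6 CPM and 40.8 to 42.4 CPM. Markers under 1 CPM were 2 of 4 and 12 of 14 in these lists. In these last lists 1 of 4 was lower for CD4+ T cells, 1 of 4 higher (Pecam1, 0.21 ± 0.064) and 1 lower (Epcam, -0.48 ± 0.13) for stromal cells, 1 of 2 higher for B cells (Cd79b, 0.36 ± 0.11) and 0 of 3 called for myeloid cells.

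Some noncoding RNAs were chosen after their values were seen. Of these, Malat1 and Neat1, which remain in the nucleus, varied widely within groups. Malat1 stood at 435.3, 741 and 595.8 CPM with LCA, 152.2, 417 and 297.9 CPM with IsoLCA and 472.4, 283.4 and 151.6 CPM in control, so that each group spread over a wide range (-1.03 ± 0.35, adjusted p = 0.0265). With the share of counts in exons as a covariate its difference was -0.28 (adjusted p = 0.227). Gas5, a host of small nucleolar RNAs, varied less within groups. It stood at 390.8, 497 and 497.4 CPM with LCA and 300.9, 344.8 and 358.3 CPM with IsoLCA (-0.46 ± 0.097). With the covariate its difference was -0.25 (adjusted p = 0.00131). Neat1 overlapped between the acids and did not pass (-0.34 ± 0.25, 95% interval -0.85 to 0.17). With the covariate its difference was 0.21 and did not pass either (adjusted p = 0.188).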
